A study of Homo sapiens with 6 samples.

Results

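The 10 genes described here encode actins, actin-binding proteins and a myosin light chain, and many of them are known targets of serum response factor (SRF). They were chosen by gene symbol with earlier results of the same contrast in view, and all 10 have a row among the 19912 rows of the deposited mRNA table. RNA came from PANC-1 cells, a human pancreatic ductal carcinoma line, of a phenotype labelled gemcitabine resistance. One group of 3 samples is labelled shSRSF3, a short hairpin against the splicing factor SRSF3, and the other group of 3 samples is labelled ctrl. Both groups carry the resistance label. The hairpin sequence, the construct in the controls, the number of clones and whether the drug was present are not stated in the labels, and nothing says that the samples of a group came from separate cultures. Any p-value therefore measures the spread between these libraries, which may be technical.

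Actin filaments are built from actin monomers, crosslinked by filamins and alpha-actinins, lined by tropomyosins, tied to adhesion sites by vinculin and pulled on by myosin II. SRF is a transcription factor that binds the CArG box, a short AT-rich DNA element. One class of its partners, the MRTF coactivators, is held inactive by free actin monomers, and the other, the TCF factors such as ELK1, is switched on by ERK signalling. Transgelin (TAGLN), calponin 1 (CNN1), smooth muscle actin (ACTA2) and MYL9 are best known from contractile smooth muscle and activated fibroblasts, while ACTB and ACTG1 are the cytoplasmic actins of nearly all cells.

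The element that SRF binds was looked for in the annotated promoters. RefSeq (GRCh38.p14) windows were matched for 7 of the 10 genes, the others being ACTB, TAGLN and MYL9. The 250 bases upstream of each annotated start were searched on both strands for the 10-base CArG box, without mismatches, an element that is its own reverse complement in its fixed letters. Of the 11 windows of these 7 genes, 3 held a match, 1 each in ACTG1, FLNA and ACTN1, against 1.16% of the 35116 windows in the table. Of 43 other SRF target genes with a window, 13 held one, among them SRF itself, which is also on that list, with 2. Counted by gene, 1.44% of all 27305 genes with a window held one. These 43 genes were listed as known SRF targets, so nothing is read from their count. The windows below are shown because they hold the box, in capitals, upstream of the 2 abundant members with the largest difference between groups, of an alternative start of ACTN1, and of SRF. They run 5′ to 3′ on the gene's own strand.
ACTG1, chr17:81512800-81513049, minus strand, box at position -94 from the start: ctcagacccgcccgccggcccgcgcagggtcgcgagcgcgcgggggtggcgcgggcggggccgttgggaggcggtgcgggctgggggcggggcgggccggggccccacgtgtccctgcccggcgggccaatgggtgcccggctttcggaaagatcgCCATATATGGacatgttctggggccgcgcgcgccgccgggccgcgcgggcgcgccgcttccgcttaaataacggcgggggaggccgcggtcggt
FLNA, chrX:154374635-154374884, minus strand, box at position -94: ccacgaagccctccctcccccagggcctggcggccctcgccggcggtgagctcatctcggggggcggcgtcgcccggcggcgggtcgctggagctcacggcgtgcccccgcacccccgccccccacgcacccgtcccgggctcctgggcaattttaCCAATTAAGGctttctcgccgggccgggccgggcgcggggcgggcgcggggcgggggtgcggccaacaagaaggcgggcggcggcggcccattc
ACTN1, chr14:68977567-68977816, minus strand, box at position -171: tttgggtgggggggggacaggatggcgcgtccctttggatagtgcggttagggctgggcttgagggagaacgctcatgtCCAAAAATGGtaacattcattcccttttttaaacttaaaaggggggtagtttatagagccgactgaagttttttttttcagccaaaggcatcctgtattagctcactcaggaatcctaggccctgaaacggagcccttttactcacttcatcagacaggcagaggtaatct
SRF, chr6:43171019-43171268, plus strand, boxes at positions -30 and -10: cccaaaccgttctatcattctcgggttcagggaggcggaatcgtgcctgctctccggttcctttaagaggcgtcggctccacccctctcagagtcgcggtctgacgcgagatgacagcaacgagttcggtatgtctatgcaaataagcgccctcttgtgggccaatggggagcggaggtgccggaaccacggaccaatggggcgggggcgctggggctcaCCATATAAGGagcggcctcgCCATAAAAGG
The ACTG1 box reads CCATATATGG, the FLNA box CCAATTAAGG, the ACTN1 box CCAAAAATGG and the SRF boxes CCATATAAGG and CCATAAAAGG. Windows of ACTA2, CNN1, VCL and TPM1, and the other annotated starts of ACTN1, held no exact match, which says only that these letters are not in those windows.

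Library depth and labels were checked first. Values are FPKM, fragments scaled to gene length and library size. Totals recovered from the steps of the values ran from 24903382 to 27300517 fragments in the libraries labelled shSRSF3 and from 24558238 to 27351642 in controls. SRSF3 itself stood at 37.5 ± 0.90 FPKM in the libraries labelled shSRSF3 and at 38.6 ± 1.40 FPKM in controls (SD, n = 3 each). Its log2 change was -0.04 with an SE of 0.05 (limma adjusted p = 0.612), so no fall of the targeted mRNA was detected and every direction here is that of the label. Epithelial markers summed to 3762 to 4728 FPKM in the libraries labelled shSRSF3 and to 3602 to 3814 FPKM in controls, with KRT7 alone of 7 below 0.5 FPKM. All 10 fibroblast markers were below 0.5 FPKM, with sums of 0.433 to 0.620 and 0.522 to 0.676 FPKM in the same order of groups, and COL1A2 and PDGFRA were at 0 in all 6 libraries. Of 7 smooth muscle markers, MYH11 and MYOCD were at 0 in all 6 libraries and SMTN alone reached 0.5 FPKM, with sums of 1.43 to 1.73 FPKM in the libraries labelled shSRSF3 and 1.39 to 1.54 FPKM in controls. All 6 immune and endothelial markers were below 0.5 FPKM, with PTPRC at 0 in every library. Library 1 of those labelled shSRSF3 stands apart. Its FPKM values sum to 336887, with 32.1% in mitochondrial mRNAs, against sums of 308101 and 287148 (27.5% and 25.6%) in the other libraries of its label and 275359 to 285701 (25.6% to 26.2%) in controls.

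The 10 genes spanned from the most abundant mRNAs of the cell to the limit of detection. ACTG1 and ACTB ranked 18th and 22nd of all rows by mean FPKM, and FLNA, the actin crosslinker filamin A, ranked 42nd. ACTN1 (alpha-actinin 1, a crosslinker), VCL (vinculin) and TPM1 (tropomyosin 1) lay between 14.5 and 48.2 FPKM in every library. ACTA2 and TAGLN lay between 1.42 and 3.75 FPKM, MYL9 between 0.0555 and 0.166 FPKM, and CNN1 was listed at 0 in 5 of 6 libraries. In both groups the order of the means was ACTG1, ACTB, FLNA, ACTN1, VCL, TPM1, ACTA2, TAGLN, MYL9 and CNN1. Neighbours in that order did not overlap within a group, except ACTA2 and TAGLN in the libraries labelled shSRSF3. FPKM divides by one length for a whole gene, and the recovered lengths ran from 2821 bases for MYL9 to 12876 for TPM1, a gene of many alternative exons, so a gene with many rarely used exons reads low on this scale.

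**Figure D1:**
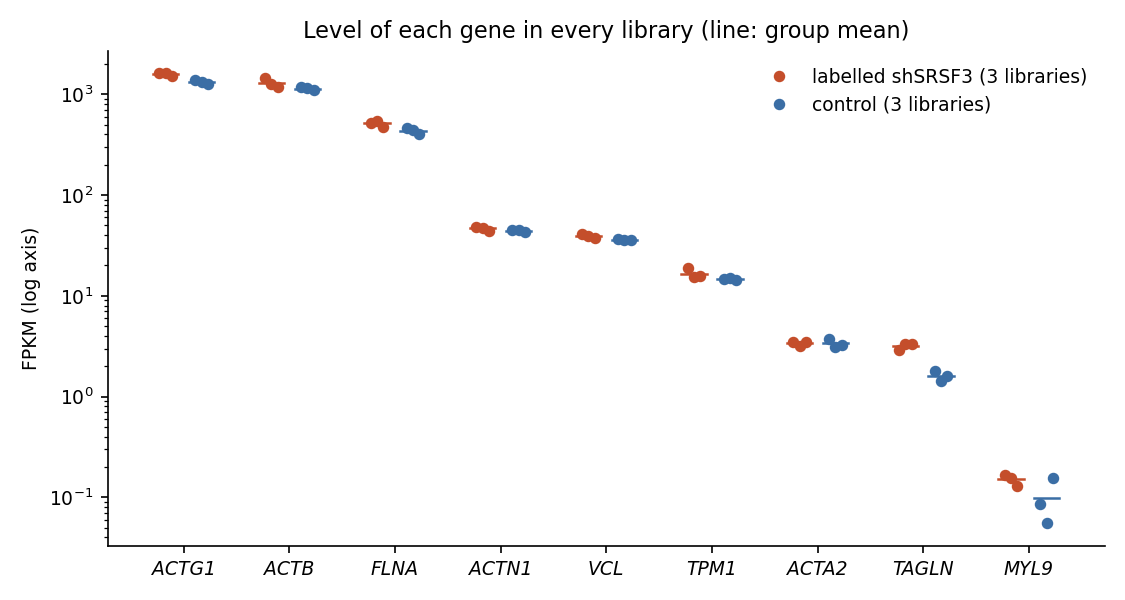
FPKM (log axis) of 9 genes in each of the 3 libraries labelled shSRSF3 and the 3 control libraries, with the group mean as a line. TAGLN is the gene whose groups stand furthest apart, at 2.88 to 3.31 FPKM against 1.42 to 1.80 FPKM in controls, while ACTA2 overlaps. CNN1, with 1 library above 0, is not drawn.

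Between the groups the genes went mostly one way, by small amounts. These differences belong to the contrast the genes were chosen on and are given as description. Of 10 genes, 8 reached the minimum mean of 0.5 FPKM for the limma fit over 10823 rows. Of these 8, ACTG1 and TAGLN passed the threshold (Benjamini-Hochberg adjusted p under 0.05), both higher in the libraries labelled shSRSF3, where 16.8% of all tested rows passed, 10.9% passed as higher and 5.91% as lower. In 6 of the 8 every library labelled shSRSF3 lay above every control, a pattern that 22.6% of all tested rows showed (15.3% showed the opposite and 37.9% either), so nothing is read from these counts. In RNA from whole cultures, fewer cells of a type and less RNA per cell cannot be told apart. The median log2 change of the 8 was 0.17, against 0.02 over all tested rows. With the minimum mean at 5 FPKM the median of all rows was 0.05, and that of the 6 genes tested there was 0.17.

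Among the cytoplasmic actins, ACTG1 had 1616, 1610 and 1530 FPKM in libraries 1 to 3 labelled shSRSF3, against 1400, 1322 and 1257 FPKM in controls 1 to 3. The groups did not overlap, and the means of 1586 ± 47.9 and 1326 ± 71.3 FPKM (SD, n = 3 each) differ by a log2 change of 0.26 (SE 0.08). The call of ACTG1 rests on the setting. It was lost without control library 1, 2 or 3, without shSRSF3-labelled library 2, with no filter on low values, and with median, quantile or FPKM-sum scaling. ACTB had 1455, 1253 and 1177 FPKM in the libraries labelled shSRSF3, against 1173, 1142 and 1096 FPKM in controls. Library 1 labelled shSRSF3 was the highest, and library 3 lay just above the highest control. The log2 change of ACTB was 0.18 (SE 0.09), and 0.10 without shSRSF3-labelled library 1. ACTB and ACTG1 have near-identical coding sequences and many processed pseudogenes, so how reads were split between them is uncertain. The ratio of ACTG1 to ACTB was 1.11, 1.29 and 1.30 in the libraries labelled shSRSF3 and 1.19, 1.16 and 1.15 in controls, so the groups overlapped in it.

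ACTA2, the actin of smooth muscle and activated fibroblasts, did not follow them. It had 3.46, 3.20 and 3.45 FPKM in the libraries labelled shSRSF3 and 3.75, 3.12 and 3.28 FPKM in controls, from 237 to 280 fragments in each library. The groups overlapped throughout, with a log2 change of -0.0021 (SE 0.07, 95% interval from -0.15 to 0.15). The interval leaves out a difference of the size seen for TAGLN, 0.68. ACTA2 made up 0.117% ± 0.009 of the FPKM of 6 actin genes in the libraries labelled shSRSF3 and 0.137% ± 0.010 in controls (SD, n = 3 each). In this share ACTA2 overlapped between groups, at 0.112% to 0.127% against 0.126% to 0.146%. Where counting ignores strand, its reads cannot be told from those of genes that overlap it, FAS at 4.16 ± 0.382 and 4.12 ± 0.209 FPKM in the same order and the antisense RNA ACTA2-AS1 at 0.546 ± 0.091 and 0.534 ± 0.066 FPKM.

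TAGLN, the actin-binding protein transgelin, differed most. It had 2.88, 3.31 and 3.30 FPKM in the libraries labelled shSRSF3, against 1.80, 1.42 and 1.61 FPKM in controls. The lowest library labelled shSRSF3 was well above the highest control, and the ratio of the means was 1.97. The values rest on 289, 323 and 353 fragments in the libraries labelled shSRSF3 and 173, 142 and 172 in controls. The log2 change was 0.68 (SE 0.07) on log2(FPKM + 1), which understates a gene at this level, and 0.94 with a pseudocount of 0.1 FPKM. TAGLN kept its call in each of the 15 alternatives that tested it, with log2 changes from 0.58 to 0.94. PCSK7, which overlaps TAGLN in RefSeq, stood at 2.55 ± 0.287 and 2.17 ± 0.129 FPKM in the same order (log2 change 0.16, limma adjusted p = 0.157), and whether its reads enter the TAGLN value was not tested.

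CNN1 and MYL9, partners of TAGLN in smooth muscle, were listed close to 0 FPKM. MYL9, a regulatory light chain of myosin II, had 12, 11 and 10 fragments (0.166, 0.157 and 0.130 FPKM) in the libraries labelled shSRSF3 and 6, 4 and 12 fragments (0.0866, 0.0555 and 0.156 FPKM) in controls. The groups overlapped, and at 33 against 22 fragments in all (exact Poisson 95% intervals 22.7 to 46.3 and 13.8 to 33.3, for counting error only) a difference was not detectable at this depth. CNN1 was listed at 0.0139 FPKM in library 2 labelled shSRSF3, a value that 1 fragment gives if its length is 2879 bases, and at 0 in the other 5 libraries. On that length a count of 0 allows up to 0.0381 to 0.0424 FPKM per library.

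FLNA, the crosslinker filamin A, had 515, 547 and 476 FPKM in the libraries labelled shSRSF3, against 462, 438 and 408 FPKM in controls. The groups did not overlap, and the log2 change was 0.23 (SE 0.07). FLNA missed the threshold in the fit as described, and passed it with the minimum mean at 5 FPKM, with robust empirical Bayes, without shSRSF3-labelled library 3, with a replicate block and with voom on recovered fragments. Its log2 change was 0.05 with quantile normalization, 0.10 with equal FPKM sums and 0.14 with mitochondrial mRNAs left out of the sum, where it did not pass. VCL, which couples talin and actin at adhesions, had 41.3, 39.6 and 37.3 FPKM in the libraries labelled shSRSF3, against 36.8, 35.7 and 35.4 FPKM in controls. Its groups were apart by less than 1 FPKM at their nearest, with a log2 change of 0.13 (SE 0.05).

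TPM1, which lines actin filaments, had 18.7, 15.3 and 15.7 FPKM in the libraries labelled shSRSF3, against 14.8, 14.9 and 14.5 FPKM in controls. Controls were tightly grouped and library 1 labelled shSRSF3 stood above all others. The log2 change of TPM1 was 0.16 (SE 0.07), and 0.07 without that library. The gene-level value sums all isoforms and shows nothing of splicing. ACTN1 had 48.2, 47.5 and 44.1 FPKM in the libraries labelled shSRSF3 and 45.4, 44.5 and 43.0 FPKM in controls, which overlapped, with a log2 change of 0.07 (SE 0.05).

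The order of the libraries was compared with that of the FPKM sums. In ACTB, ACTG1 and VCL the 6 libraries stood in exactly the order of the FPKM sums of their tables, from library 1 labelled shSRSF3 down to control library 3. How many of all tested rows share that order was not counted, so nothing is read from it. As a share of the FPKM sum in ppm, ACTB came to 4320, 4068 and 4098 ppm in the libraries labelled shSRSF3 and 4106, 4017 and 3980 in controls, which overlap. Shares of ACTG1, FLNA, VCL and TPM1 overlapped between groups too, ACTN1 was lower without overlap (143 to 154 against 156 to 159 ppm), and TAGLN alone stayed higher without overlap, at 8.55, 10.8 and 11.5 ppm against 6.29, 4.99 and 5.83. The share of all tested rows without overlap on this scale was not counted. With equal FPKM sums the median log2 change of all tested rows was -0.09, so nothing is read from these overlaps. The part that the larger mitochondrial share of library 1 plays in the FPKM sums and in these genes was not tested.

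**Figure D2:**
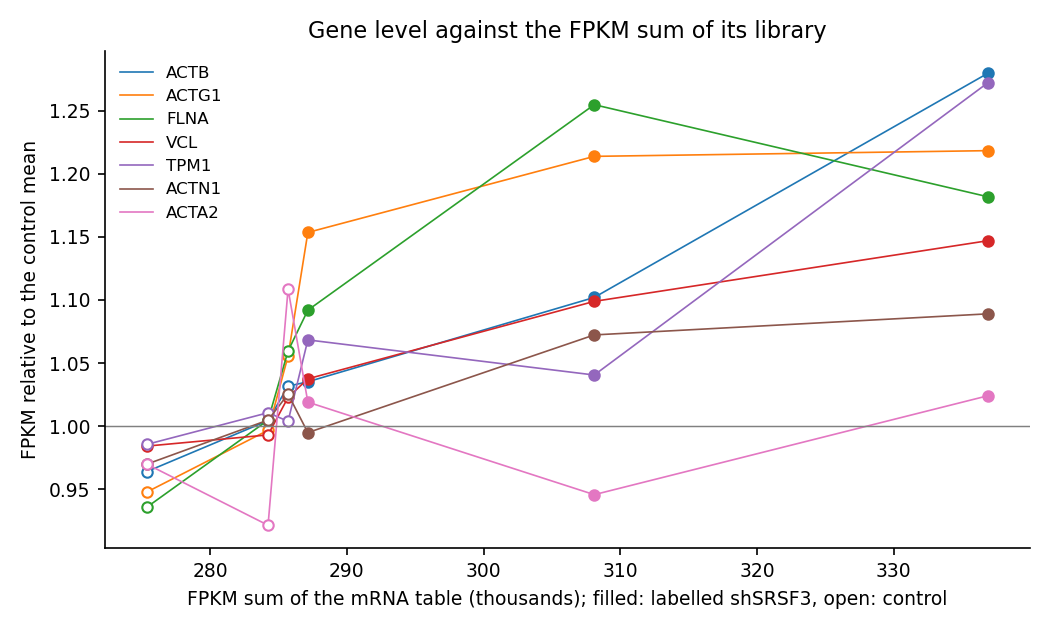
FPKM of 7 genes relative to their control mean, against the FPKM sum of the library's mRNA table; filled points are libraries labelled shSRSF3, open points controls. ACTB, ACTG1 and VCL are ordered as the sums are, with ACTB highest in the library whose sum is 336887, while ACTA2 shows no such order.

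Scaling sets the direction for several genes and not for TAGLN. Dividing each library by its FPKM sum, an alternative chosen after seeing the data, moved the median of all tested rows to -0.09 and the median of the 8 genes to 0.04, which is 0.13 above all rows, against 0.15 above all rows without rescaling. ACTN1 turned to -0.06 and VCL to -0.01 there. Quantile normalization, which gives rows of equal rank the same value in every library, gave 0.03 for the median of the 8 genes, also 0.03 above all rows, and turned ACTB to -0.03 and ACTN1 to -0.01. Without shSRSF3-labelled library 1 the median of the 8 genes was 0.07 above all rows. With quantile normalization and both FPKM-sum scalings TAGLN was the sole gene of the 8 past the threshold, as it was with median scaling and with no filter. Without shSRSF3-labelled library 3 the count was 5 (ACTB, ACTG1, TAGLN, VCL and FLNA), and without shSRSF3-labelled library 1 it was 2 (ACTG1 and TAGLN).

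The counts of the 8 genes are to be read against the share of all tested rows that passed in the same fit. That share was 9.47% with equal FPKM sums, 16.0% when mitochondrial mRNAs were left out of the sum, 15.0% with quantile normalization and 16.4% with median scaling. It was 5.88% with no filter, 26.4% with a minimum mean of 5 FPKM, 16.8% with a pseudocount of 0.1 FPKM, 17.7% with robust empirical Bayes, 21.5% with a replicate block and 18.4% with voom. Without shSRSF3-labelled library 1, 2 or 3 it was 15.2%, 7.8% and 25.3%, and without control library 1, 2 or 3 it was 10%, 5.98% and 6.01%.

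**Figure D3:**
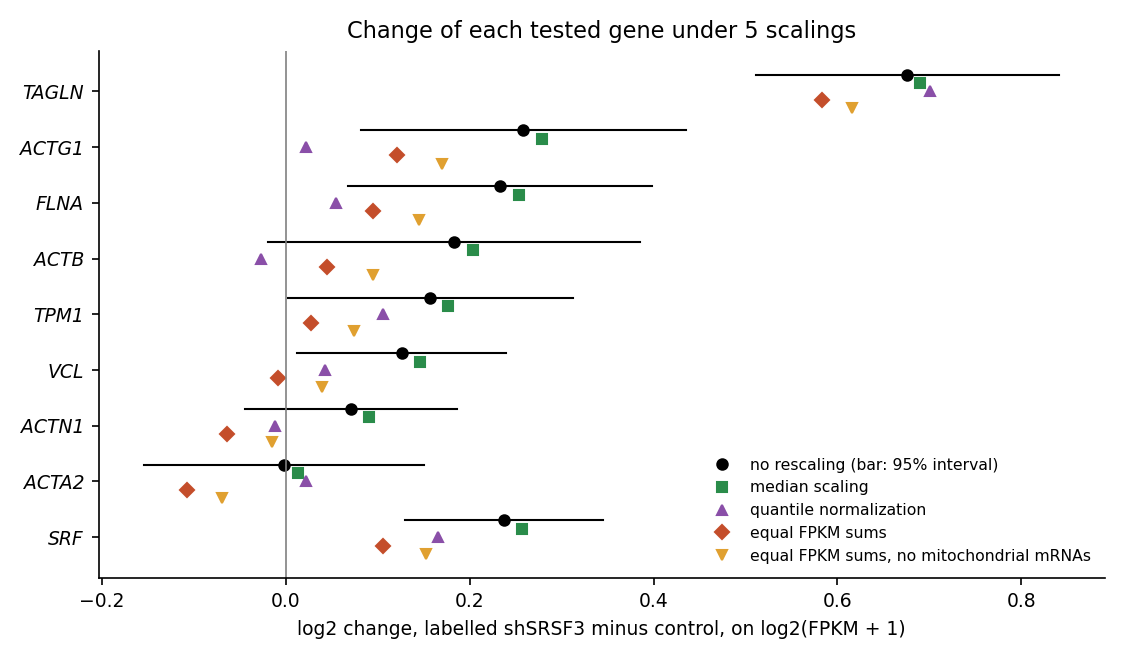
Log2 change on log2(FPKM + 1), libraries labelled shSRSF3 minus controls, for the 8 tested genes and SRF under 5 scalings, with the 95% interval of the limma fit for the values without rescaling. TAGLN stays at 0.58 or above, while ACTB, VCL, ACTN1 and ACTA2 change sign under at least 1 scaling.

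The regulators were measured next. SRF rose, with 24.7, 25.4 and 24.8 FPKM in the libraries labelled shSRSF3 and 22.0, 20.5 and 20.7 FPKM in controls. The groups did not overlap, and SRF differed by 0.24 on the log2 scale with an SE of 0.05 (limma adjusted p = 0.0106, from 0.00635 to 0.321 over the alternatives). Its call was lost without control library 2 or 3 and with equal FPKM sums, with or without mitochondrial mRNAs, where it kept a positive log2 change of 0.11 and 0.15. ELK1, a TCF partner of SRF, fell to 18.6 ± 0.427 FPKM in the libraries labelled shSRSF3, against 24.99 ± 0.552 FPKM in controls (SD, n = 3 each). The log2 change of ELK1 was -0.41 (SE 0.05, limma adjusted p = 0.000658) and passed in every alternative run. MRTFA (MKL1 in the table) stood at 9.75 ± 0.623 and 9.05 ± 0.569 FPKM in the same order (log2 change 0.10, limma adjusted p = 0.309, and -0.03 with equal FPKM sums), and MRTFB (MKL2) at 2.35 ± 0.146 and 2.61 ± 0.099 FPKM (limma adjusted p = 0.259). Myocardin (MYOCD), the coactivator of smooth and heart muscle, was at 0 in all 6 libraries. Of 8 tested genes among SRF and its cofactors, 1 rose and 1 fell, against 16.8% of all tested rows in either direction, and the list median was 0.02 on the log2 scale.

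Among 47 other genes known as SRF targets, 36 were tested, and 12 rose and 1 fell, 36.1% of the 36 against 16.8% of all tested rows. The list median was 0.15 on the log2 scale, against 0.02 for all tested rows. This list, like the other gene lists, was chosen with earlier results of these data known. Its counts and median are therefore given as description. In 20 of the 36 the libraries labelled shSRSF3 lay above the controls without overlap, and in 1 below, against 22.6% and 15.3% of all tested rows. The count past the threshold was 12 without shSRSF3-labelled library 1, 7 without control library 3 and 5 with equal FPKM sums. With the minimum mean at 5 FPKM it was 13 of 30, against 26.4% of all rows tested there. CCN1 (CYR61 in the table), a secreted matricellular protein that also responds to YAP, had 25.7, 24.4 and 25.3 FPKM in the libraries labelled shSRSF3, against 15.7, 16.4 and 14.7 FPKM in controls (log2 change 0.66, limma adjusted p = 7.76e-05, from 1.34e-05 to 0.00277 over the alternatives). ANKRD1, a nuclear ankyrin-repeat protein and another YAP-responsive gene, had 4.52, 3.94 and 4.68 FPKM in the libraries labelled shSRSF3, against 1.67, 1.86 and 1.33 FPKM in controls. Both groups are far apart in these genes, and the log2 change of 1.04 in ANKRD1 (limma adjusted p = 7.97e-05, from 1.98e-05 to 0.00643 over the alternatives) is the largest of the list. EGR1, an immediate early factor reached through SRF and TCFs, had 47.5, 45.4 and 45.5 FPKM in the libraries labelled shSRSF3 and 36.9, 36.6 and 36.1 FPKM in controls, a log2 change of 0.33 whose call was lost with equal FPKM sums (limma adjusted p = 0.0579, the highest of a range from 0.000926).

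**Figure D4:**
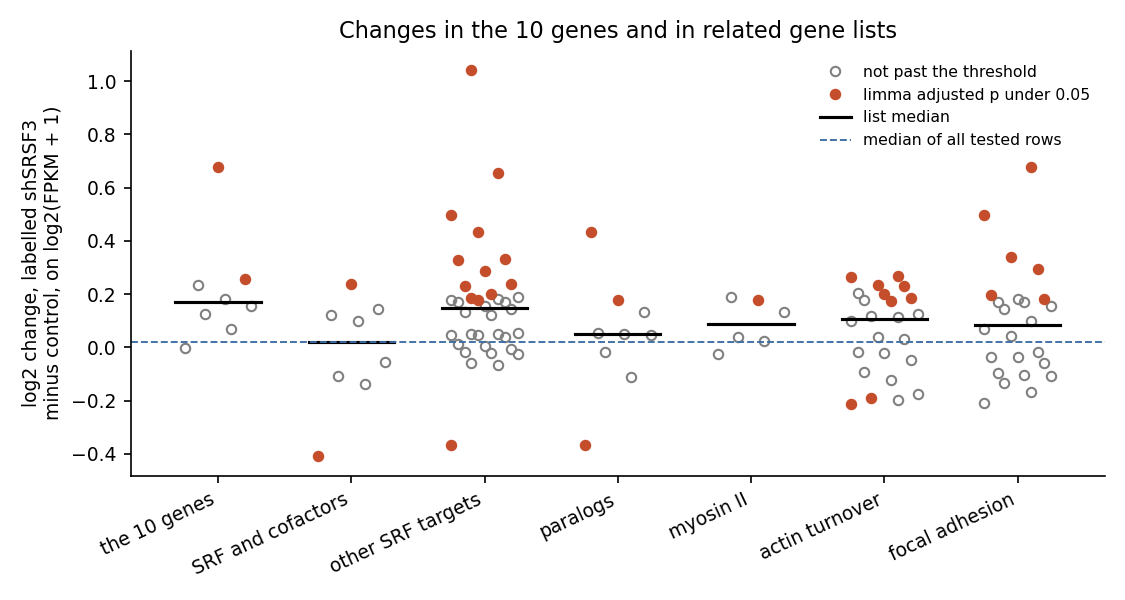
Log2 change on log2(FPKM + 1) of every tested gene in the 10-gene group and in 6 related lists, which share some genes, with list medians as black lines and the median of all tested rows, 0.02, as a dashed line; filled points passed the limma threshold. The other SRF targets have a median of 0.15 and hold the highest point, ANKRD1 at 1.04, while their lowest point is TAGLN2 at -0.37; ELK1, at -0.41, is the lowest point of all lists.

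The paralogs of the 10 genes differed in direction within a family. TAGLN2, the transgelin of nonmuscle cells, fell to 51.7, 51.4 and 47.1 FPKM in the libraries labelled shSRSF3, against 64.8, 65.8 and 63.9 FPKM in controls (log2 change -0.37, SE 0.05, limma adjusted p = 0.0021, from 0.00015 to 0.0167 over the alternatives). TAGLN and TAGLN2 thus had changes of opposite sign, under every scaling run. TAGLN made up 5.95% ± 0.642 of transgelin FPKM in the libraries labelled shSRSF3 and 2.42% ± 0.296 in controls (SD, n = 3 each), so TAGLN2 remained the main transgelin of both groups. CNN2, the calponin of nonmuscle cells, rose to 205, 199 and 181.5 FPKM in the libraries labelled shSRSF3, against 151, 146 and 136 FPKM in controls (log2 change 0.43, SE 0.06, limma adjusted p = 0.00257, from 0.000833 to 0.0217 over the alternatives). CNN3, added after its values were seen, stood at 44.0 and 47.5 FPKM in the same order and did not pass (limma adjusted p = 0.145). CNN2 made up 81.6% ± 1.51 of calponin FPKM in the libraries labelled shSRSF3 and 75.2% ± 1.08 in controls.

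**Figure D5:**
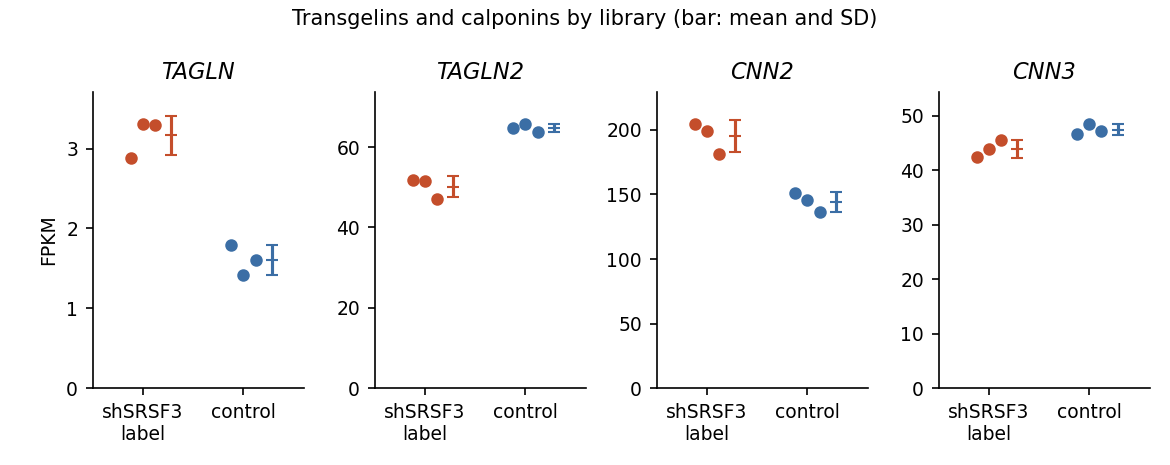
FPKM of TAGLN, TAGLN2, CNN2 and CNN3 in the 3 libraries labelled shSRSF3 and the 3 control libraries, with group mean and SD beside the points; each axis starts at 0. TAGLN and CNN2 are higher and TAGLN2 is lower in the libraries labelled shSRSF3, with no overlap between groups; CNN3 is lower by a small margin and did not pass the threshold.

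Of 9 tested paralogs in all, 2 rose and 1 fell, against 10.9% higher and 5.91% lower of all tested rows. The third that passed was MYL12A, a nonmuscle regulatory light chain, at 135.7 ± 0.091 FPKM in the libraries labelled shSRSF3 and 119.9 ± 2.74 FPKM in controls (log2 change 0.18, limma adjusted p = 0.0314, from 0.0242 to 0.677 over the alternatives). The call of MYL12A was lost without control library 1, 2 or 3 and without shSRSF3-labelled library 2. It was also lost with quantile normalization (log2 change 0.07), equal FPKM sums (0.04) and sums without mitochondrial mRNAs (0.09). MYL12A and MYL12B held nearly all regulatory light chain FPKM, with MYL9 at 0.0305% in the libraries labelled shSRSF3 and 0.0222% in controls. Tropomyosin FPKM came mainly from TPM3 (55.1% and 54.7%) and TPM4 (33.3% and 34.7%), with TPM1 at 11.2% ± 0.757 and 10.2% ± 0.009. Among 6 genes of myosin II other than MYL9, MYL12A alone rose and none fell, which is 16.7%, close to the 16.8% of all tested rows.

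Of 24 tested genes of actin turnover, 7 rose and 2 fell, against 10.9% higher and 5.91% lower of all tested rows (list median 0.11 on the log2 scale, against 0.02 for all tested rows). They included rises of CAPZB, a filament capping subunit, by 0.27 (log2), of the severing protein CFL2 by 0.23 and of profilin 2 (PFN2) by 0.18, and a fall of thymosin beta 4 (TMSB4X), which binds actin monomers, to 142 ± 1.53 FPKM, against 165 ± 7.25 FPKM in controls (limma adjusted p = 0.0120, 0.0181, 0.0236 and 0.0234 in that order). Each of these 4 calls was lost when at least 1 of control libraries 2 and 3 was left out. Those of CAPZB, PFN2 and TMSB4X were also lost without shSRSF3-labelled library 2, and that of PFN2 without control library 1. With equal FPKM sums the calls of CAPZB (log2 change 0.13), CFL2 (0.11) and PFN2 (0.05) were lost, as were those of CFL2 (0.16) and PFN2 (0.10) without mitochondrial mRNAs in the sum and that of PFN2 (0.10) with quantile normalization. TMSB4X passed in these 3 scalings, with -0.35 on the log2 scale with equal FPKM sums. With the minimum mean at 5 FPKM, 26.4% of all rows tested passed in either direction, and the genes of actin turnover were not counted there.

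Adhesion genes had 6 higher and 0 lower of 24 tested past the threshold, against 10.9% and 5.91% of all tested rows (list median 0.09). At an unadjusted p under 0.05 there were 13 of 24, against 3575 of 10823 rows. With the minimum mean at 5 FPKM, 26.4% of all rows tested passed in either direction, and the adhesion genes were not counted there. The list was mixed in sign, with 14 of 24 positive, 10 higher without overlap and 5 lower without overlap. TNS4, a tensin of epithelial adhesions, rose to 426, 393 and 344 FPKM in the libraries labelled shSRSF3, against 258, 240 and 227 FPKM in controls (log2 change 0.68, limma adjusted p = 0.000968, from 7.11e-05 to 0.0176 over the alternatives). Zyxin (ZYX), recruited to strained stress fibres, rose to 8.16, 8.06 and 6.56 FPKM in the libraries labelled shSRSF3, against 5.54, 5.07 and 4.63 FPKM in controls (log2 change 0.50, limma adjusted p = 0.00475, from 0.0015 to 0.0352 over the alternatives). The scaffold BCAR1 and the stress fibre protein palladin (PALLD) rose by 0.34 and 0.30 (log2, limma adjusted p = 0.00719 and 0.00772), calls that were lost with equal FPKM sums.

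Rows whose profile over the 6 libraries was most like that of TAGLN were sought among 6305 other rows averaging 5 FPKM or more, by the root mean square difference of centred log2(FPKM + 1) values. The nearest were CYP26B1 (0.0872), JAG1 (0.0877), TMEM179B (0.0878), HES7 (0.0899) and NANOS1 (0.0953). CYP26B1 had 6.77, 6.97 and 7.36 FPKM in the libraries labelled shSRSF3 and 3.82, 3.75 and 3.49 FPKM in controls. In all 5 rows the libraries labelled shSRSF3 lay above the controls without overlap, as in 22.6% of all tested rows. A search for the TAGLN profile largely sets this in advance. The 5 rows share the 6 libraries, and their nearness is a description.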

How the data were processed

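Values deposited by the authors are FPKM, scaled to gene length and library size, for each gene symbol in 6 libraries, 3 labelled shSRSF3 and 3 ctrl, in an mRNA and a lncRNA table. Per the submitters' processing notes the authors' tools include StringTie, HISAT2, edgeR and Cuffdiff; what each did is not stated. Nor are the genome build, annotation or use of strand. Per the labels' protocols, poly-A selection and a stranded rRNA-depleted preparation were both used; which gave these values is not stated.

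The 10 genes and the lists were chosen with earlier results of these data known. The mRNA table was tested with limma 3.58.1 in R 4.3.3 (log2(FPKM + 1), rows averaging 0.5 FPKM or more, trended eBayes, two-sided tests, Benjamini-Hochberg adjustment over 10823 rows, threshold 0.05), with no rescaling, after a check on simulated data. The simulated libraries did not differ in composition beyond the rows changed on purpose, so the check does not bear on scaling. Named genes were the 10 genes, SRSF3, SRF, MRTFA, MRTFB, MT-ND2, up to 4 genes per list with the smallest p past the threshold, and the 5 rows most like TAGLN; of the genes outside this rule, CNN3 and ACTN4 and those that overlap a member were chosen after their values were seen. One gene list and some family shares are not reported here. Older symbols were matched through the reference gene tables (4 listed genes).

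Fragment numbers were recovered from the steps of the FPKM values, with a single total per library and a length per row. These gave whole numbers within 0.003 fragments for 10793 of 10823 rows (99.7%), the 8 tested genes included. MYL9 and CNN1 lie outside these rows and were fitted in the same way. With 1 library above 0, the length of CNN1 is not checked by a second library. Intervals and limits from fragment numbers cover counting error only. Running limma voom on these fragments, with TMM factors computed in R, was an alternative and called 1981 rows. Tables were made with pandas 2.3.3 under Python 3.11.15. Other alternatives changed the pseudocount, filter, scaling, empirical Bayes step, replicate block or the libraries kept; the FPKM-sum scalings were chosen after seeing the data.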

Additional observations from a re-analysis of the deposited data

How the results depend on the processing

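The count of mRNA rows past the threshold was 1819 (64.8% higher). It was 960 with no filter and 1025 with equal FPKM sums (14.6% higher), and ran from 647 to 2742 with each library left out. The share higher was 50.3% with quantile normalization, 30.2% with equal FPKM sums without mitochondrial mRNAs and 46.8% with voom. Of the 10 genes, 2 passed; the count was 1 with no filter, median scaling, quantile normalization and both FPKM-sum scalings, and 1 to 5 with each library left out. Among other SRF targets 13 passed, 5 and 7 with equal FPKM sums with and without mitochondrial mRNAs, and 7 to 16 with each library left out. SRSF3 never passed (log2 -0.17 to -0.02). The median of the 8 tested genes was 0.17 on the log2 scale, 0.0325 with quantile normalization, 0.0358 and 0.0842 with equal FPKM sums with and without mitochondrial mRNAs, and 0.094 to 0.2198 with each library left out. The cause of these shifts was not tested.

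Signs that turned were those of ACTB (-0.027) and ACTN1 (-0.0118) with quantile normalization, of ACTN1 (-0.0643), VCL (-0.0087) and MRTFA (MKL1, -0.0275) with equal FPKM sums, of ACTN1 (-0.0155) without mitochondrial mRNAs in the sum, and of ACTA2, to 0.0137 with median scaling and 0.0216 with quantile normalization; with each library left out ACTA2 ran from -0.0459 to 0.0573. Of the other results for single members, 101 kept sign and call, 7 gained the call and 9, those of ACTG1, lost it. With the replicate number as a block, 2323 rows and 3 of the 10 genes passed (FLNA added), though the libraries share only a number: same-numbered libraries correlated at 0.0776, 0.0385 and 0.279 in their deviations from the group means. For MYL9 and CNN1 the fragments were too few to detect a difference. What part counting played in their low values was not tested. MT-ND2 had a limma adjusted p = 0.0487, lost without control library 1 (0.116), 2 (0.150) or 3 (0.189) or shSRSF3-labelled library 2 (0.104), and with no filter (0.265), median scaling (0.0556) and quantile normalization (0.563).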

Other observations

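Several cytoskeletal genes were listed close to 0 beside abundant relatives. ACTN4, the alpha-actinin of epithelial and other nonmuscle cells, averaged 0.0505 FPKM in the libraries labelled shSRSF3 and 0.0365 FPKM in controls, so ACTN1 made up 99.8% of alpha-actinin FPKM in both groups. Caldesmon (CALD1) averaged 0.410 and 0.368 FPKM and myosin light chain kinase (MYLK) 0.210 and 0.174 FPKM in the same order. These genes were chosen after their values were seen, and what part counting played in them was not tested.

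In the lncRNA table, TPM1-AS, antisense to TPM1, averaged 0.137 ± 0.049 FPKM in the libraries labelled shSRSF3 and 0.106 ± 0.053 FPKM in controls, and ACTN1-AS1 0.137 ± 0.105 and 0.0796 ± 0.103 FPKM (SD, n = 3 each). The groups overlapped in both.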
